A study of Drosophila melanogaster and Drosophila yakuba and Drosophila virilis with 31 samples.

Results

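The genes considered here are those of purine synthesis in single Drosophila embryos and eggs. They were 6 named genes, ade2, ade3, ade5, Prat, ras and bur, picked by their symbols with earlier results of these data in view, including an egg-to-embryo change of ade2 in D. yakuba opposite to that in the other species. Of the 6 names, 4 were among the 5993 genes of the abundance table, namely ade2, ade3, ras and bur. All 4 passed the filter on low values. The genes ade5 and Prat were not analysed here.

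Purines are the adenine and guanine bases of nucleotides. They are built stepwise on a sugar phosphate until inosine monophosphate (IMP) is formed, and IMP is then turned into either the adenine or the guanine nucleotide. A Drosophila egg is loaded by its mother with RNA and protein, and its early nuclei divide very rapidly, which uses large amounts of nucleotides. The embryo's own genome is transcribed at scale only around the blastoderm stage, when many maternal transcripts are also being cleared. Both ade2 and ade3 act on the path to IMP, ade2 as phosphoribosylformylglycinamidine synthase and ade3 as an enzyme that joins several of the early steps in one protein. The other pair lies on the guanine branch after IMP: ras (raspberry) encodes IMP dehydrogenase and bur (burgundy) encodes GMP synthase.

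Messenger RNA was sequenced from single whole female embryos, single whole male embryos and single unfertilized eggs of D. yakuba (strain Tai18E2), D. pseudoobscura (MV2-25), D. virilis (V46) and D. melanogaster (Oregon-R), which gave 12 groups. Embryos were taken at the end of the blastoderm stage, after cellularization and before gastrulation, were laid at room temperature by mothers 3 to 5 days old, and were sexed by PCR of Y-linked loci. Of 31 libraries, 29 were used, since the study had dropped the third D. pseudoobscura female and the first D. virilis male. This left 22 embryos (3 females and 3 males per species, but 2 females in D. pseudoobscura and 2 males in D. virilis) and 7 eggs (2 per species, but 1 in D. pseudoobscura). Embryos came from many mothers, so each library is a separate individual of 1 strain per species. A level below is FPKM, a measure of fragments for the length of the transcript and the size of the library, which the authors scaled to the 75th percentile of genes. A change is a difference of log2(FPKM + 1), which understates the change of low levels, with its standard error (SE) from limma. Read counts are not part of the tables, so the depth behind a level is unknown.

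The libraries fitted their labels. Of 14 genes known to be transcribed by the embryo, such as eve and ftz, 13 were in the table, and they summed to 805 to 2120 FPKM in embryos and to 12.6 to 34.2 FPKM in eggs, where Sxl was the only one above 1 FPKM. Of 8 maternal genes, 6 were in the table, and they summed to 4.63 to 98.5 FPKM in embryos and to 504.1 to 1256 FPKM in eggs. These sums moved with every embryo and egg comparison below, and their part in it was not tested. A whole embryo holds many cells and an unfertilized egg is a single cell, and fewer cells with a transcript and less transcript per cell cannot be told apart.

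The levels of the 4 genes in every library are plotted by species. Over the 16 pairs of a gene and a species, all embryos lay below all eggs in 12 pairs and above them in 2 pairs, and the ranges overlapped in 2 pairs. Of all 5983 genes tested, embryos lay below eggs for 32.8% in D. yakuba, 37.5% in D. pseudoobscura, 28.9% in D. virilis and 31.6% in D. melanogaster, and above them for 38.5%, 43.2%, 47.9% and 44.7%. Since these levels were used to choose the genes, they are given as a description, with no test.

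**Figure D1:**
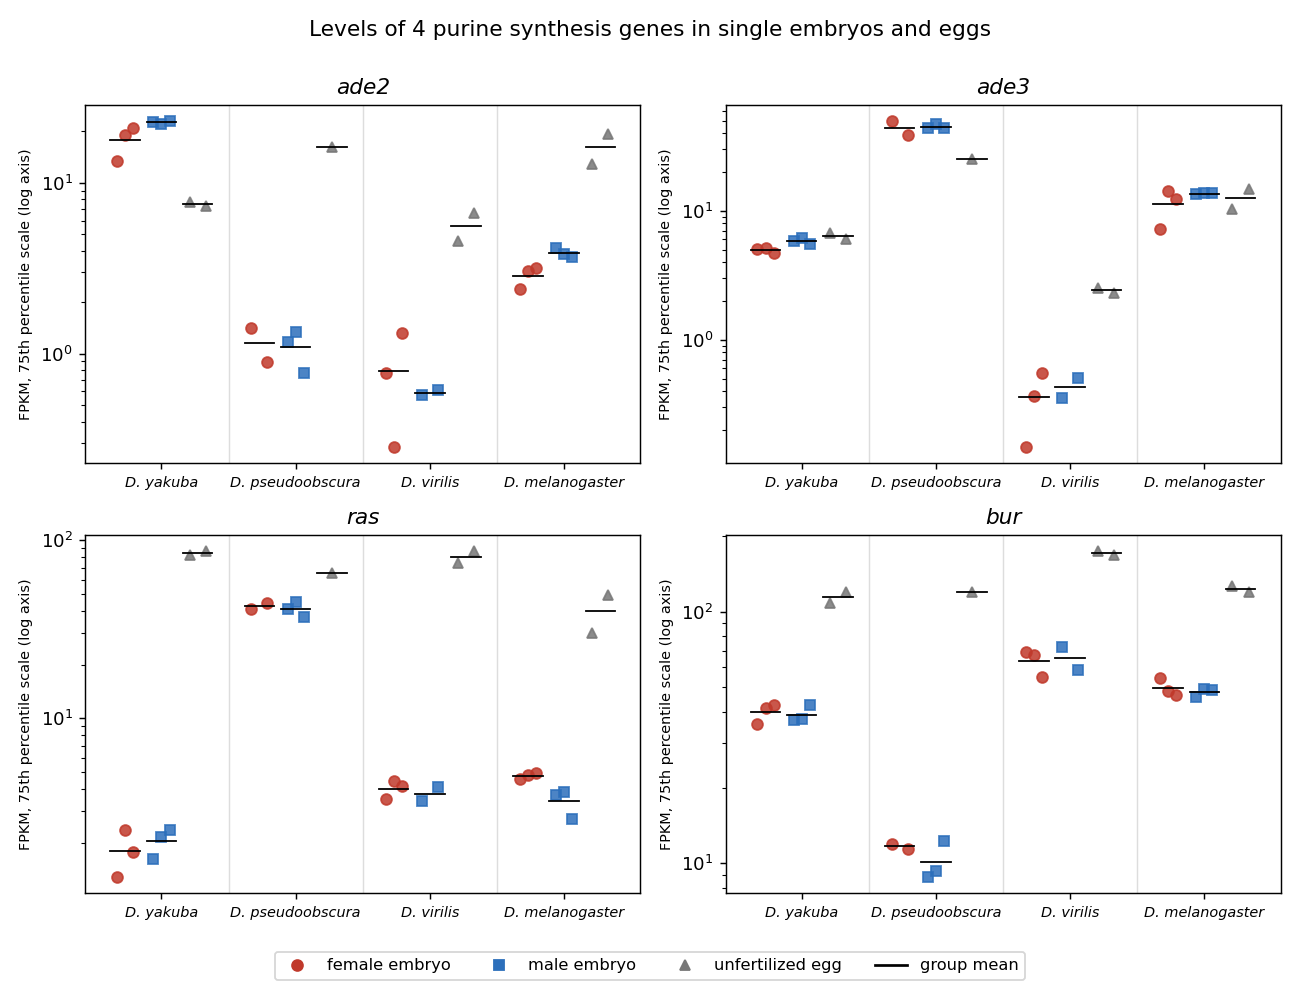
Levels of ade2, ade3, ras and bur (FPKM, log axis) in each library of 4 species. Circles are female embryos, squares male embryos and triangles unfertilized eggs, and the horizontal lines are group means. For ade2, the D. yakuba embryos lie above the D. yakuba eggs and the embryos of the other species lie below theirs.

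Transcripts of ade2 were more abundant in embryos than in eggs in D. yakuba and less abundant in embryos in each of the other species. In D. yakuba embryos the level was 13.4, 19.2 and 20.9 FPKM in females and 22.2, 22.7 and 23.0 FPKM in males, against 7.68 and 7.37 FPKM in eggs. All 6 embryos lay above both eggs, and the mean of embryos was 2.69 times that of eggs.

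Elsewhere the order was turned round. In D. pseudoobscura the 5 embryos ranged from 0.765 to 1.41 FPKM with a median of 1.17, against 16.3 FPKM in the egg. The 5 D. virilis embryos had 0.284 to 1.32 FPKM with a median of 0.610, against 4.54 and 6.65 FPKM in eggs. D. melanogaster embryos had 2.39, 3.05 and 3.16 FPKM in females and 3.66, 3.85 and 4.17 FPKM in males, against 12.9 and 19.4 FPKM in eggs. In these 3 species no embryo reached the level of an egg, and the mean of eggs was 14.6, 7.89 and 4.77 times that of embryos in D. pseudoobscura, D. virilis and D. melanogaster.

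On the log2 scale the embryo minus egg change of ade2 was 1.30 ± 0.20 in D. yakuba (SE, n = 6 embryos and 2 eggs), −3.04 ± 0.28 in D. pseudoobscura (n = 5 and 1), −1.97 ± 0.21 in D. virilis (n = 5 and 2) and −1.95 ± 0.20 in D. melanogaster (n = 6 and 2). The D. yakuba change less the mean of the other changes was 3.62 ± 0.24. Ranked by this difference from the most positive, ade2 stood at place 25 of 5983 genes, against 1489 for bur, 2870 for ade3 and 5774 for ras. The D. pseudoobscura value rests on a single egg.

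How uncommon a change of this form was depended on the cut. Higher in D. yakuba embryos by 1 or more on the log2 scale, and lower by 1 or more in embryos of each other species, were 5 of 5983 genes (0.0836%). This count is for the 75th-percentile table and ranged from 2 to 9 genes over the 6 deposited normalizations. ade2 was not among the genes without normalization and with the 95th percentile, where its D. yakuba change was 0.73 and 0.63, nor with a pseudocount of 10, where it was 0.78. Besides ade2 these were CG6672, SPoCk (a calcium pump of the secretory pathway), and spn-E and del, both known for the silencing of transposons by small RNAs in the ovary. The same form with D. pseudoobscura, D. virilis or D. melanogaster as the species that was higher held for 10, 37 and 5 genes, and none of the 4 purine genes was among them. With a cut of 0.5 in place of 1, the D. yakuba form held for 21 genes (0.351%), and with opposite signs alone for 123 (2.06%). Since ade2 was chosen with this change in view, its place in the counts and its rank are a description.

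**Figure D2:**
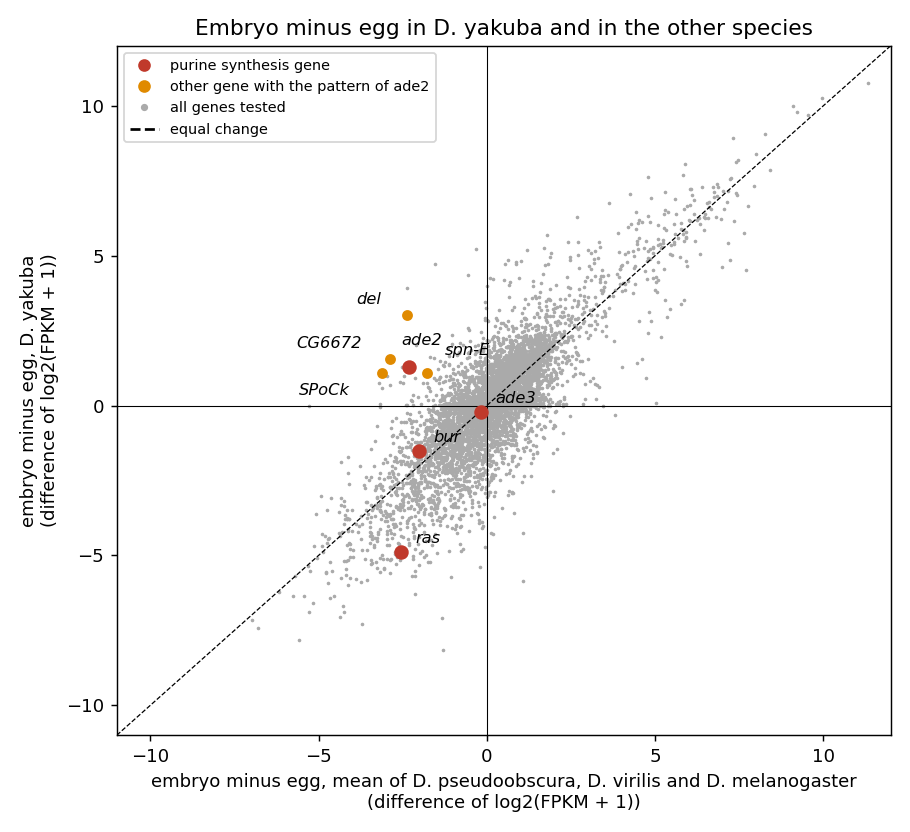
Embryo minus egg change, as the difference of log2(FPKM + 1), in D. yakuba (vertical) against the mean of D. pseudoobscura, D. virilis and D. melanogaster (horizontal). Each grey point is 1 of 5983 genes, red points are the purine synthesis genes, orange points the other genes with the form of change of ade2, and the dashed line is an equal change. ade2 lies in the upper left part at 1.30 in D. yakuba, while bur and ras lie in the lower left.

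Both ends of the comparison differed between species for ade2. In embryos D. yakuba stood at 20.3 ± 3.62 FPKM (SD, n = 6), D. pseudoobscura at 1.12 ± 0.279 FPKM (n = 5), D. virilis at 0.710 ± 0.382 FPKM (n = 5) and D. melanogaster at 3.38 ± 0.643 FPKM (n = 6). The lowest D. yakuba embryo was above every other embryo, every D. melanogaster embryo was above every embryo of D. pseudoobscura and D. virilis, and the ranges of D. pseudoobscura and D. virilis overlapped. The D. yakuba minus D. melanogaster difference between embryos was 2.27 ± 0.14 on the log2 scale (SE). The SE does not cover differences of annotation between species. In eggs the order was another: the D. pseudoobscura egg lay between the D. melanogaster eggs, and both D. yakuba eggs were lower than these and above both D. virilis eggs. Among all genes, ade2 stood at percentile 56.6 of D. yakuba embryos but 33.4 of D. yakuba eggs, and at 28.1 of D. melanogaster embryos but 44.4 of D. melanogaster eggs.

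In the D. melanogaster coordinates of the files (FlyBase release 5), ade2 (FBgn0000052) spans 2L 6041177 to 6045970. The span is 4794 bases there, 4790 in D. yakuba, 8645 in D. pseudoobscura and 4149 in D. virilis. In the BDGP6 annotation, a later build used here only for neighbours, 103 of its 4434 exonic bases are shared with CG31643 on the opposite strand, and the sources used here do not say that strand was kept. The level of CG31643 was 10.4 to 17.2 FPKM in D. yakuba embryos, against 15.2 and 15.3 FPKM in eggs, so those ranges overlapped. In D. melanogaster CG31643 was at 14.5 to 19.5 FPKM in embryos and 19.8 and 21.6 FPKM in eggs.

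The second gene on the path to IMP, ade3, had the largest of the log2 differences between species in embryos. D. pseudoobscura embryos had 38.4 and 49.8 FPKM in females and 43.7, 43.8 and 47.5 FPKM in males, against 25.2 FPKM in the egg. D. virilis embryos ranged from 0.147 to 0.553 FPKM with a median of 0.370, against 2.53 and 2.31 FPKM in eggs. Thus all embryos were above the egg in D. pseudoobscura and below both eggs in D. virilis.

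D. yakuba embryos had 4.72 to 6.20 FPKM of ade3 with a median of 5.32, against 6.72 and 6.06 FPKM in eggs. D. melanogaster embryos had 7.26 to 14.1 FPKM with a median of 13.6, against 10.3 and 14.8 FPKM in eggs. In both species embryos and eggs overlapped. The change of ade3 was −0.21 ± 0.18 in D. yakuba, 0.79 ± 0.24 in D. pseudoobscura, −1.30 ± 0.19 in D. virilis and −0.02 ± 0.18 in D. melanogaster (log2, SE). The D. melanogaster value was −0.26 without the second egg and 0.22 without the third, by their replicate numbers, and the values of D. yakuba and D. melanogaster were above 0 under median and quantile normalization. The D. pseudoobscura value, which rests on the single egg, was 0.02 with the 95th percentile. ade3 (FBgn0000053) lies at 2L 7014860 to 7023940 in D. melanogaster, and the gene Pcp, which encodes a pupal cuticle protein, lies within its span on the opposite strand.

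On the guanine branch, ras was lower in embryos than in eggs in all 4 species. D. yakuba embryos ranged from 1.28 to 2.36 FPKM with a median of 1.96, against 81.9 and 86.5 FPKM in eggs. The D. virilis embryos had 3.42 to 4.44 FPKM with a median of 4.11, against 74.6 and 86.3 FPKM in eggs. D. melanogaster embryos had 2.71 to 4.91 FPKM with a median of 4.21, against 30.2 and 49.3 FPKM in eggs. In these species the means of eggs were 43.7, 20.5 and 9.70 times those of embryos.

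The fall of ras was smallest in D. pseudoobscura. Its embryos had 36.9 to 44.9 FPKM with a median of 41.0, against 65.1 FPKM in the egg, which was 1.56 times the mean of embryos. The change was −4.88 ± 0.17 in D. yakuba, −0.63 ± 0.23 in D. pseudoobscura, −4.06 ± 0.18 in D. virilis and −2.98 ± 0.17 in D. melanogaster (log2, SE). The D. pseudoobscura value rests on the single egg and moved with the table, being −1.28 without normalization, −1.41 with the 95th percentile and −0.04 with the median. The dropped D. pseudoobscura female, at 63.4 FPKM, was the nearest to the egg. ras (FBgn0003204) is at X 10638538 to 10642839 in D. melanogaster. In BDGP6 it shares 160 of 2866 exonic bases with stx on the opposite strand, which was at 2.47 to 5.75 FPKM in D. yakuba embryos and 29.8 and 37.2 FPKM in D. yakuba eggs. In D. virilis stx was at 23.9 to 29.7 FPKM in embryos and 20.9 and 27.7 FPKM in eggs, which overlapped. In BDGP6 ras also shares 154 exonic bases with lncRNA:CR44766 on the same strand, for which no level was found. The part of stx and of this RNA in the levels of ras was not tested.

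The last gene, bur, was the most abundant of the 4 in eggs of every species and was lower in embryos throughout. D. yakuba embryos had 35.9 to 42.7 FPKM with a median of 39.4, against 108.4 and 119.8 FPKM in eggs. D. virilis embryos had 55.1 to 72.2 FPKM with a median of 67.3, against 173.9 and 168.5 FPKM in eggs. In D. melanogaster embryos bur was at 45.7 to 54.4 FPKM with a median of 48.5, against 126.1 and 119.6 FPKM in eggs. The means of eggs were 2.89, 2.65 and 2.51 times those of embryos in these species.

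D. pseudoobscura embryos stood apart for bur, with 8.81 to 12.3 FPKM and a median of 11.4, against 119.9 FPKM in the egg. The change was −1.51 ± 0.12 in D. yakuba, −3.35 ± 0.16 in D. pseudoobscura, −1.40 ± 0.12 in D. virilis and −1.31 ± 0.12 in D. melanogaster (log2, SE). These sizes moved with the table, with −2.24 in D. yakuba and −2.09 in D. melanogaster for the 95th percentile and −0.98 and −0.94 for the median. bur (FBgn0000239) lies at 2L 21174382 to 21179697 in D. melanogaster. In BDGP6 an antisense RNA, asRNA:CR44911, shares 354 of its 3116 exonic bases.

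How far these changes follow from the scaling was read from the 6 tables that the authors deposited with different normalizations. The median change over all genes in a table ranged from −0.17 to 0.34 in D. yakuba, −0.28 to 0.40 in D. pseudoobscura, 0.00 to 0.25 in D. virilis and −0.17 to 0.43 in D. melanogaster (log2). Less that median, the change of ade2 was 0.80 to 1.80 in D. yakuba, −3.47 to −2.76 in D. pseudoobscura, −2.68 to −2.22 in D. virilis and −2.52 to −1.92 in D. melanogaster. The sign of ade2 was therefore the same in all 6 tables. For ade3 the same quantity was −0.69 to 0.38 in D. yakuba and −0.58 to 0.42 in D. melanogaster, so its sign there followed the normalization, whereas it was 0.31 to 1.08 in D. pseudoobscura and −2.18 to −1.55 in D. virilis.

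**Figure D3:**
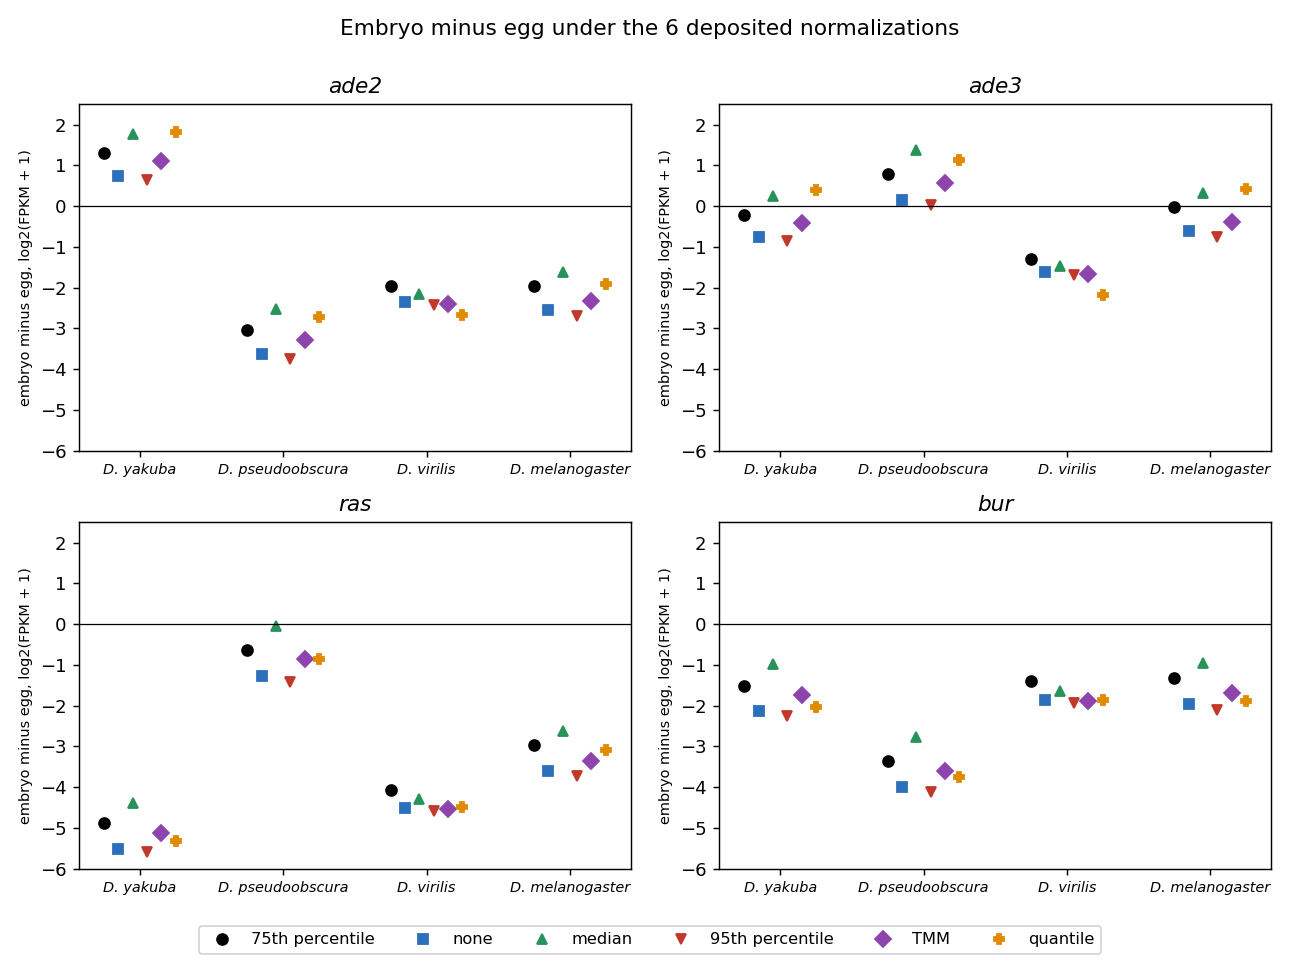
Embryo minus egg change (difference of log2(FPKM + 1)) of ade2, ade3, ras and bur in 4 species, with a symbol for each of the 6 deposited normalizations. The symbols of ade2 lie above 0 in D. yakuba and below 0 in the other species, and those of ade3 lie on both sides of 0 in D. yakuba and D. melanogaster.

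Female and male embryos were compared next, a question for which the genes had not been chosen. None of the 16 tests of a gene in a species passed an adjusted p of 0.05 (limma, Benjamini-Hochberg, adjusted p from 0.345 to 1), and 1 had an unadjusted p under 0.05. Of all genes, 3.01% passed in D. yakuba, 5.93% in D. pseudoobscura, 2.96% in D. virilis and 3.58% in D. melanogaster. The unadjusted one was ras in D. melanogaster, with 4.57, 4.82 and 4.91 FPKM in females, against 3.69, 3.86 and 2.71 FPKM in males. The difference was 0.39 ± 0.17 (log2, SE, limma, Benjamini-Hochberg adjusted p = 0.345), and all 3 females lay above all 3 males. In the other species ras differed by −0.13 ± 0.17 in D. yakuba, 0.06 ± 0.19 in D. pseudoobscura and 0.08 ± 0.19 in D. virilis, and the ranges of the sexes overlapped.

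Females and males did not overlap in 4 of the 16 pairs, and over all genes they did not overlap for 10.4% in D. yakuba, 30.2% in D. pseudoobscura, 22.4% in D. virilis and 14% in D. melanogaster. In the 3 pairs beside ras, females were below males, as they were for 2.96% of all genes in D. yakuba and 3.44% in D. melanogaster, where females were above for 10.5%. These were ade2 in D. yakuba, with the levels given above and a difference of −0.35 ± 0.20, ade3 in D. yakuba at −0.20 ± 0.18, and ade2 in D. melanogaster at −0.35 ± 0.20 (log2, SE). With quantile normalization ade2 in D. melanogaster differed by −0.65 and passed (limma, Benjamini-Hochberg adjusted p = 0.0338). Among the other alternatives none of the 16 tests passed.

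Embryos of the 4 species were also compared with each other for ade3, ras and bur. Since levels in these embryos were in view when the genes were chosen, the differences are a description, with no test. The level of a gene rests on the annotation of its own species. The paper names annotation and genome quality as concerns when levels are compared between species, and the SE does not cover them. The widest gap was that of ade3 in D. pseudoobscura over D. virilis embryos, at 5.03 ± 0.14 on the log2 scale (SE, n = 5 and 5). D. pseudoobscura embryos also exceeded D. melanogaster embryos, by 1.78 ± 0.14, and D. yakuba embryos were lower than those of D. melanogaster by a difference of −1.04 ± 0.13. For ras, D. pseudoobscura embryos were above those of D. melanogaster by 3.09 ± 0.13 and above those of D. virilis by 3.13 ± 0.14. D. virilis and D. melanogaster embryos differed by −0.04 ± 0.13, and their ranges overlapped.

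For bur, D. pseudoobscura embryos were the lowest, at −2.07 ± 0.09 against D. melanogaster and −2.46 ± 0.09 against D. virilis. D. yakuba and D. melanogaster embryos, the closest pair for this gene, differed by −0.30 ± 0.08 (SE, n = 6 and 6). The order of species in embryos was thus another for each gene. D. yakuba was highest for ade2, D. pseudoobscura for ade3 and ras, and D. virilis for bur.

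The authors deposited a class of origin for each gene and species, maternal, zygotic or both, with a confidence of high or low. In D. melanogaster all 4 genes had the maternal class. The other classes are predictions of a classifier that used these libraries, so they are not independent of the levels. Of the 16 classes 15 were maternal. Of the genes with a class, the maternal share at either confidence was 66.3% in D. yakuba, 67.8% in D. pseudoobscura, 62.3% in D. virilis and 67.3% in D. melanogaster. Fewer genes had a class in D. melanogaster than in the other species. ade2 in D. yakuba had the class of both, with low confidence, in all 6 tables. In D. yakuba 10.7% of genes had that class at low confidence and 1.69% at high confidence. ras and bur were maternal with high confidence in every species, and ade3 was maternal with low confidence in D. yakuba, D. pseudoobscura and D. virilis, but with high confidence in D. virilis in the median and quantile tables.

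Other genes that make, salvage or break down purines were followed as a list of 30 genes, of which 19 were in the table. Higher and lower in embryos than in eggs were 7 and 7 of them in D. yakuba, 7 and 11 in D. pseudoobscura, 10 and 5 in D. virilis and 8 and 8 in D. melanogaster (limma, Benjamini-Hochberg adjusted p of 0.05). Of all genes 38.6% and 33% were higher and lower in D. yakuba, 35.4% and 32% in D. pseudoobscura, 44.4% and 27.2% in D. virilis and 44.2% and 32% in D. melanogaster. The median change of the list was 0.14, −0.90, 0.52 and −0.05 in the same order of species, beside 0.08, 0.08, 0.25 and 0.18 over all genes (log2). ry, CG16758 and Adgf-D passed the filter through embryos alone, with eggs at 0.506, 0.999 and 0.427 FPKM at most. The counts and medians include them, and the filter favours their calls of higher. The split depended on the normalization in each species: without any, it was 5 and 10 in D. yakuba, 4 and 12 in D. pseudoobscura, 7 and 7 in D. virilis and 7 and 11 in D. melanogaster, and with the median it was 10 and 4, 7 and 7, 7 and 5, and 9 and 6.

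**Figure D4:**
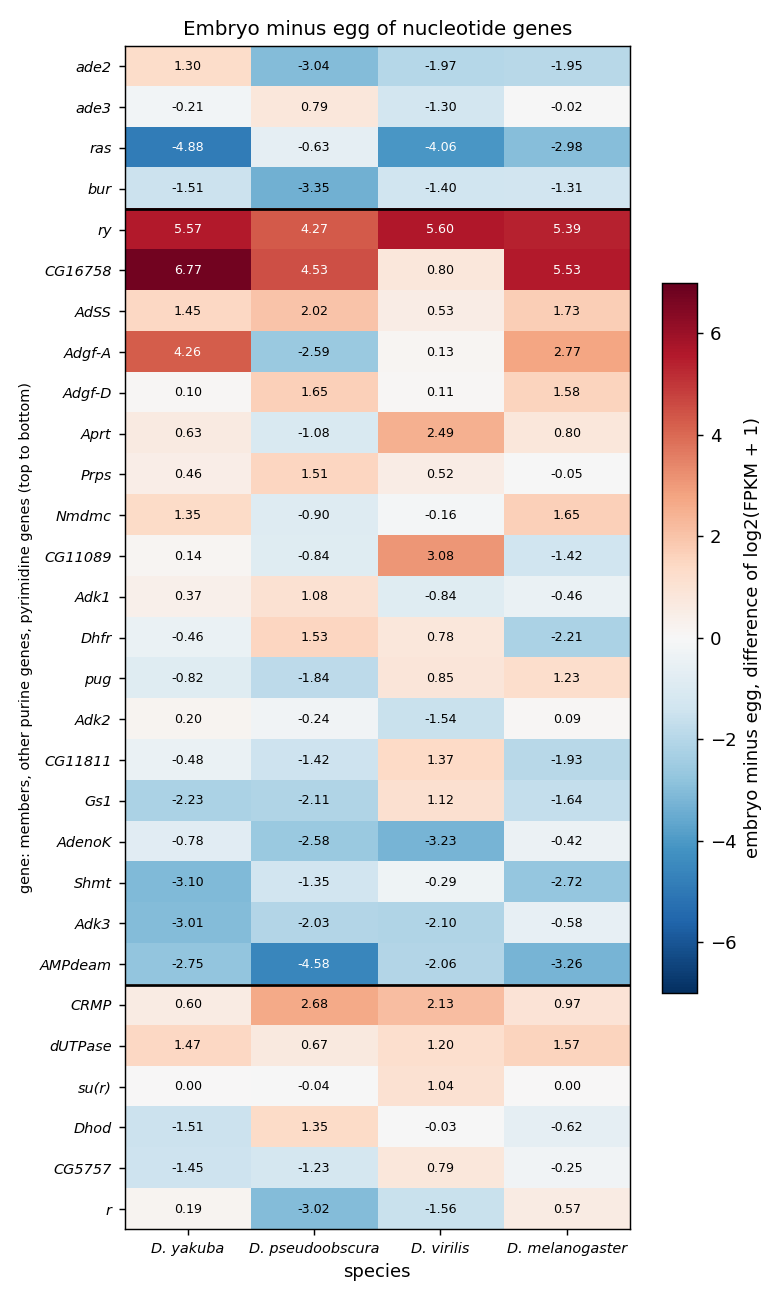
Embryo minus egg change (difference of log2(FPKM + 1), red for higher in embryos, blue for lower) of the 4 purine synthesis genes at the top, 19 other purine genes in the middle and 6 pyrimidine genes at the bottom, by species. The changes of ry are above 4 and those of AMPdeam below −2 in all 4 species, while ade2 is red in D. yakuba alone.

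The D. pseudoobscura calls of the lists, above and below, rest on the same single egg in every normalization, and the fit took its spread from other groups. Next to ade2 and ade3 in the pathway stand Prps, which supplies the activated sugar phosphate, and CG11089, which closes the ring to give IMP. CG11089 changed most in D. virilis, with 16.6 to 24.5 FPKM in embryos, against 1.19 and 1.72 FPKM in eggs. That change was 3.08 ± 0.15, while it was −0.84 ± 0.19 in D. pseudoobscura and −1.42 ± 0.14 in D. melanogaster, and D. yakuba at 0.14 ± 0.14 did not pass (log2, SE, limma, Benjamini-Hochberg adjusted p = 0.408). The D. virilis and D. melanogaster calls held under all 6 normalizations, and that of D. pseudoobscura was lost under 1 of them. Prps rose in D. pseudoobscura by 1.51 ± 0.24, a call that was in all 6 tables with sizes from 0.72 to 2.11. Its D. yakuba value of 0.46 passed in 2 tables and its D. virilis value of 0.52 in 1 table.

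On the adenine branch AdSS, which turns IMP toward the adenine nucleotide, was higher in embryos by 1.45 ± 0.16 in D. yakuba, 2.02 ± 0.21 in D. pseudoobscura and 1.73 ± 0.16 in D. melanogaster. These calls were in all 6 tables, with sizes of 0.71 to 1.97, 1.24 to 2.62 and 0.95 to 2.10 in that order. The D. virilis value of 0.53 for AdSS passed in 1 table. The levels of AdSS were 216.1 to 286.8 FPKM in D. yakuba embryos and 90.3 and 92.1 FPKM in D. yakuba eggs. The most positive mean changes of the list included those of ry and CG16758, which passed the filter through embryos alone. The gene ry (xanthine dehydrogenase) was at 41.7 to 52.1 FPKM in D. yakuba embryos and 33.6 to 55.9 FPKM in D. melanogaster embryos, and it is listed at 0 in the eggs of both. CG16758, a purine nucleoside phosphorylase, was at 69.9 to 150.4 FPKM in D. yakuba embryos and is listed at 0 in both D. yakuba eggs. In D. virilis it stayed at 0.387 to 1.13 FPKM in embryos.

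The most negative mean changes of the list were those of AMPdeam (AMP deaminase), Adk3 (an adenylate kinase) and Shmt (serine hydroxymethyltransferase, of one-carbon metabolism). AMPdeam fell in every species, with changes of −2.75 in D. yakuba, −4.58 in D. pseudoobscura, −2.06 in D. virilis and −3.26 in D. melanogaster (log2). These calls held under all 6 normalizations, while the sizes moved, as from −4.01 to −2.90 in D. melanogaster. Adk3 fell too, with −3.01, −2.03, −2.10 and −0.58 in the same species order, and the last call was lost in 1 of the 6 tables. For Shmt the changes were −3.10, −1.35 and −2.72 in D. yakuba, D. pseudoobscura and D. melanogaster, lost in D. pseudoobscura in 1 table, and its D. virilis value was −0.29.

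Whether the D. yakuba change differed from the mean of the others was tested for both lists of other nucleotide genes. It differed for 10 of the 19 purine genes, 6 more positive and 4 more negative, beside 25.9% and 31.6% of all genes (limma, Benjamini-Hochberg adjusted p of 0.05). The largest positive difference was that of Adgf-A, a secreted adenosine deaminase, at 4.16 ± 0.24 (SE). It had 76.8 to 148.4 FPKM in D. yakuba embryos, against 4.44 and 4.76 FPKM in eggs. D. pseudoobscura embryos had 2.31 to 3.72 FPKM of Adgf-A, against 21.3 FPKM in the egg. D. virilis was near 0 in both. D. melanogaster changed in the direction of D. yakuba, with 14.4 to 20.3 FPKM in embryos, against 1.51 and 1.71 FPKM in eggs. CG16758 differed by 3.15 ± 0.34, AdenoK (adenosine kinase) by 1.30 ± 0.20, Nmdmc (a folate enzyme of one-carbon metabolism) by 1.15 ± 0.21, Adk2 (an adenylate kinase) by 0.77 ± 0.20 and AMPdeam by 0.55 ± 0.21. Differences below 0 were those of Shmt at −1.65 ± 0.32, Adk3 at −1.44 ± 0.23, Gs1 (glutamine synthetase) at −1.35 ± 0.33 and pug (another folate enzyme) at −0.90 ± 0.18. The call of AMPdeam was lost in 2 of the 6 tables and the other 9 calls were in all 6. Such a difference need not be particular to D. yakuba. In D. melanogaster and D. yakuba, Nmdmc changed by 1.65 and 1.35 and AdenoK by −0.42 and −0.78. AMPdeam fell less in D. virilis than in D. yakuba, and pug fell more in D. pseudoobscura. D. yakuba had the outermost change for Adgf-A, CG16758, Adk2, Shmt, Adk3 and Gs1, though CG16758 also rose by 5.53 in D. melanogaster and 4.53 in D. pseudoobscura. For some of these the margin was small. Adk2 changed by 0.20 ± 0.17 in D. yakuba and 0.09 ± 0.17 in D. melanogaster, but −1.54 in D. virilis. Gs1 changed by −2.23 ± 0.28 in D. yakuba and −2.11 ± 0.37 in D. pseudoobscura, but 1.12 in D. virilis. Shmt changed by −3.10 ± 0.27 in D. yakuba and −2.72 ± 0.27 in D. melanogaster.

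Pyrimidine genes were followed beside them, 6 of a list of 12 being in the table. Of these, 2 and 2 were higher and lower in embryos in D. yakuba, 3 and 2 in D. pseudoobscura, 4 and 1 in D. virilis and 3 and 1 in D. melanogaster, with medians of 0.10, 0.32, 0.91 and 0.29, beside the shares and medians of all genes given for the purine list. The split depended on the table: without normalization it was 2 and 2 in D. yakuba, D. pseudoobscura and D. melanogaster and 3 and 2 in D. virilis, and with the median it was 3 and 2 in D. yakuba, 3 and 1 in D. pseudoobscura, 4 and 1 in D. virilis and 3 and 0 in D. melanogaster. dUTPase, which keeps uracil out of DNA, was higher in embryos by 1.47 in D. yakuba, 1.20 in D. virilis and 1.57 in D. melanogaster. These calls held under all 6 normalizations, with sizes of 0.64 to 2.00, 0.66 to 1.20 and 0.64 to 1.95 in that order. The D. pseudoobscura value of 0.67 for dUTPase passed in 2 tables. The D. yakuba change of r (rudimentary), which starts pyrimidine synthesis, differed from the mean of the others by 1.53 ± 0.19. That change was 0.19 in D. yakuba, but 0.57 in D. melanogaster, so it was not the highest. Those of Dhod (dihydroorotate dehydrogenase), CRMP (dihydropyrimidinase) and CG5757 (thymidylate kinase) differed by −1.75 ± 0.17, −1.33 ± 0.22 and −1.22 ± 0.28, and D. yakuba had the lowest change for each on this scale. For CRMP the D. yakuba levels were only 0.248 to 0.899 FPKM in embryos and 0 and 0.0373 FPKM in eggs. Its change of 0.60 there is compressed by log2(FPKM + 1), so its place as the lowest may be due to the scale. CG5757 changed by −1.45 ± 0.23 in D. yakuba and −1.23 ± 0.31 in D. pseudoobscura. su(r) (dihydropyrimidine dehydrogenase) was at or near 0 in D. yakuba, D. pseudoobscura and D. melanogaster and passed the filter through D. virilis embryos alone, so its difference is not given. The counts and medians above include su(r), and it is 1 of the 4 genes called higher in D. virilis, a call that its filtering favours.

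The genes whose log2(FPKM + 1) values were most like those of ade2 over the 29 libraries were Pfk (phosphofructokinase, of glycolysis), vlc, CG7407, SPoCk and flr (flare, an actin regulator), with Pearson's r of 0.95, 0.93, 0.93, 0.93 and 0.92. The libraries share species and stage, so this is a description. Pfk had 36.6 to 65.3 FPKM in D. yakuba embryos, against 27.3 and 33.3 FPKM in eggs, and 7.95 to 11.3 FPKM in D. melanogaster embryos, against 29.7 FPKM in each egg. The other purine synthesis genes were not among the genes most like ade2, with r of 0.35 for bur, 0.06 for ade3 and −0.10 for ras, beside a median of −0.07 over all genes. With values centred within species these were 0.64 for bur, 0.20 for ade3 and 0.30 for ras, beside a median of −0.17. With Spearman's rho 3 of the 5 genes were the same, with values centred within species 1, and over the 22 embryos alone 0.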

How the data were processed

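Reads were trimmed by the authors, placed on transcripts by Bowtie2 with all mappings allowed, and turned into levels by eXpress that were summed over the transcripts of a gene. The authors deposited these levels as log10(FPKM + 1) after 6 different normalizations, for genes matched across the species. Annotation was FlyBase release 5 for D. melanogaster. The builds of the other species are not given in the sources used here. Libraries were made from polyadenylated RNA, so that a change in polyadenylation would also change a level. The 75th-percentile table was used, with the log undone to give FPKM and log2 then taken of FPKM + 1. The deposited values are not read counts, so depth is unknown and no count model was run.

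The 5983 genes whose mean exceeded 1 FPKM in some group were fitted in 1 model of 12 groups over 29 libraries with limma 3.58.1 (R 4.3.3), with a trend and Benjamini-Hochberg adjustment over all genes, two-sided. No p is given for the embryo and egg comparison of the 4 genes, nor for their embryo levels between species, since these levels were in view when the genes were chosen. The members and lists were chosen with earlier results of these data known. The text names the members, Prat2, AdSL, AdSS, CG11089 and Prps where present (Prat2 and AdSL were not analysed here), the 3 genes of each list with the highest and the lowest mean change, the list genes whose D. yakuba change differed, and the 5 genes most like ade2. Other genes were named after their values were seen. The fit was tested on simulated data. Alternatives were the other normalizations, pseudocounts of 0.1 and 10, no filter or a group mean above 10, the dropped libraries included, each library left out, no trend, a replicate block, separate fits and each sex alone. The count of genes with the change of ade2 in each table was added after seeing the data. Sequences were not used.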

Additional observations from a re-analysis of the deposited data

Results flagged for a closer look

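The embryo minus egg change of ade2 went opposite ways in the species, with every embryo on the same side of every egg within a species. It was 1.30 in D. yakuba, −3.04 in D. pseudoobscura, −1.97 in D. virilis and −1.95 in D. melanogaster (log2). The difference was not tested, because it was used to choose the genes.

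For ade3 all D. pseudoobscura embryos were above the only egg, with a change of 0.79, and all D. virilis embryos were below both eggs, with a change of −1.30 (log2). That difference was not tested either.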

How the results depend on the processing

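The sign of the ade2 change was kept in every species under every alternative run, and its size was not. In the order D. yakuba, D. pseudoobscura, D. virilis and D. melanogaster it was 0.73, −3.63, −2.36 and −2.55 without normalization, 0.63, −3.74, −2.43 and −2.69 with the 95th percentile, and 0.78, −1.24, −0.54 and −0.96 with a pseudocount of 10. With the median it was 1.76 in D. yakuba, −2.52 in D. pseudoobscura and −1.61 in D. melanogaster. TMM gave −3.29, −2.40 and −2.33 in D. pseudoobscura, D. virilis and D. melanogaster. With quantile normalization it was 1.83 in D. yakuba, −2.72 in D. pseudoobscura and −2.68 in D. virilis. A pseudocount of 0.1 gave −3.78, −2.93 and −2.21, and the slope of embryo on egg values on the log2 scale −3.87, −3.03 and −2.31, in D. pseudoobscura, D. virilis and D. melanogaster. The D. yakuba change less the mean of the others was 4.26 with quantile normalization, 4.37 and 1.69 with the pseudocounts of 0.1 and 10, and 4.50 from the slopes.

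Leaving out 1 library gave 1.24 to 1.39 in D. yakuba, −3.12 to −2.95 in D. pseudoobscura, −2.20 to −1.74 in D. virilis, −2.23 to −1.68 in D. melanogaster, and 3.53 to 3.71 for the difference. Leaving out the D. pseudoobscura egg gave no value there. The sex tests had 1 call with quantile normalization and 0 otherwise. With 1 library left out, changes below −1 numbered 8 of 12 for ade3, ras and bur wherever all species had a value. That count moved with the normalization. With the median, bur was at −0.98 in D. yakuba and −0.94 in D. melanogaster, and without normalization ras was at −1.28 in D. pseudoobscura. With 1 library left out, calls of the purine list over 4 species were 59 to 63 and of the pyrimidine list 16 to 18. Their splits under other normalizations are given above. The genes most like ade2 shared 3, 0 and 1 of 5 with Spearman's rho, embryos alone and centring.

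Replicate numbers marked separate individuals. Same-numbered libraries had deviations correlated at −0.17 to 0.47 (median 0.046), with 6 of 21 pairs above 0.1. Libraries with different numbers had −0.47 to 0.25 (median −0.011), with 9 of 43 pairs above 0.1. Deviations within the smallest groups mirror each other, so the pairs are not independent. The check therefore cannot decide whether the numbers pair the samples. With a replicate block the ade2 change was −3.33 in D. pseudoobscura and the sex tests had 0 calls.

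The main limits are the few eggs, the single D. pseudoobscura egg, the unknown depth and, for levels compared between species, the separate annotations. Low levels, such as ade2 in D. virilis embryos, are least certain, and log2(value + 1) compresses them.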
